A study of Mus musculus with 88 samples.

Results

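The comparison set dendritic cells given lipopolysaccharide (LPS) against cells given a mock stimulus at 0.5 h and at 1 h, and asked which proteins that already existed at the start moved within the first hour. It used 16 of the 88 samples of the series, which are the M and H channels of 8 of the 42 trypsin runs, with 2 runs for each treatment and time, chosen by the treatment, time and replicate number in their labels. The cells came from marrow of female C57BL/6J mice, cultured with GM-CSF (granulocyte-macrophage colony-stimulating factor) in every group. On day 9 of culture they received 100 ng per ml of ultrapure LPS from Escherichia coli K12, or no stimulation (mock). No age of the mice was stated. All cells were pooled just before stimulation, and no label states whether the replicates were cultured apart. The p-values therefore cover the spread among these samples only, and that spread could be technical.

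In pulsed SILAC (stable isotope labelling by amino acids in cell culture), cells first grow in amino acids of medium mass and are then moved to heavy ones. The M form is then what cells already held when the medium changed at 0 h, and the H form is what they made later. The L form comes from cells grown in light amino acids in parallel and served as the common reference of every run. M/L is thus the level of pre-existing protein, H/L the level of new protein and H/M new over old. By this design M is not made after 0 h, so an M/L above that of 0 h cannot be read as more old protein. A rise or fall below means higher or lower in LPS than in mock, relative to the bulk of proteins. H was already present at 0 h, at a median of 13.1 and 14.2% of H plus M. What lies behind M/L values above those of 0 h was not tested. LPS is a wall component of Gram-negative bacteria that myeloid cells detect through CD14 and TLR4. Receptor binding starts the IkB kinase and MAP kinase cascades within minutes, releases NF-kB to the nucleus and activates surface proteases that cut receptors from the membrane.

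Between 3828 and 4338 proteins had an M/L value in each of the 8 runs, resting on 89206 to 109064 peptide pairs with a median of 9 or 10 per protein. Values from few pairs are less precise, and pairs are not independent molecules. Each ratio below is divided by its run's factor, so a value is relative to the bulk of proteins in that run (median 0.851 to 0.864 in the 8 runs). A fold is on the log2 scale and is LPS minus mock throughout. Of the dendritic cell markers listed, 11 of 20 had an M/L ratio in any of the 8 runs, among them CD11c (Itgax), class II molecules and CD74. Macrophage markers were measured too (11 of 13), as were granulocyte granule proteins (18 of 21), which had 512 to 596 peptide pairs in the mock runs and 487 to 621 in the LPS runs. Of 17 lymphocyte markers 0 had an M/L ratio. In bulk lysates fewer cells of a type and less protein per cell cannot be told apart.

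Over the first hour 176 of 3638 proteins (4.84%) differed in M/L between LPS and mock by limma at an adjusted p under 0.05, of which 130 were higher under LPS (3.57%) and 46 lower (1.26%). A log2 above 0 was found for 1638 of the 3638. The called changes were small. Those that rose had a median log2 of 0.24 (range 0.12 to 0.83) and those that fell a median of -0.21 (range -2.56 to -0.12), and Csf1r alone among the called proteins passed a log2 size of 1. The values of all 4 LPS runs lay above all 4 mock values for 122 of the 129 risen proteins with 8 values, and below them for 42 of the 44 fallen ones with 8 values. Among all 3227 proteins with 8 values, 20.6% did not overlap. Taking the replicate number as a block raised the count to 407 (229 higher, 178 lower), which held all 176. Pairing the 8 runs alone by time and replicate gave 0 calls by limma (978 at an unadjusted p under 0.05), and Csf1r and every other named call were lost. The count was 15 without replicate 1 and 4 without replicate 2. The count rests on the shared estimate of spread and on single runs. It was 1 without the run factor and 2 with the 8 runs fitted alone. It was 72 without mock 0.5 h replicate 1, 95 without LPS 0.5 h replicate 1, 89 without LPS 0.5 h replicate 2, 83 without mock 1 h replicate 1, 107 without mock 1 h replicate 2 and 49 without LPS 1 h replicate 2.

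**Figure D1:**
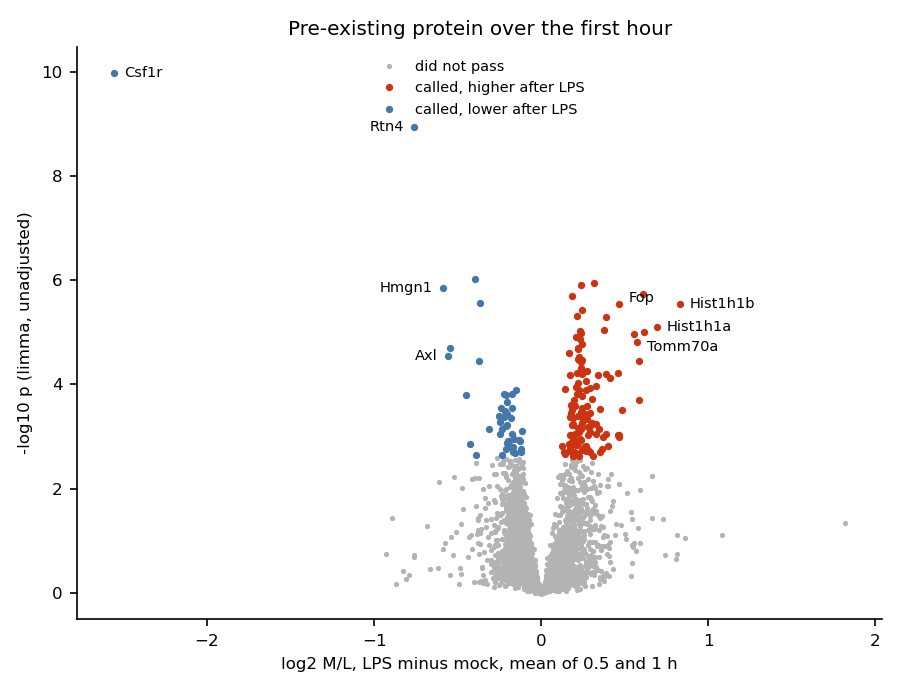
Difference in pre-existing protein (x axis, log2 of M/L, LPS minus mock over 0.5 and 1 h) against its unadjusted p-value (y axis, -log10 scale) for the 3638 proteins tested, 1 point each. The 130 called higher lie at small positive values up to 0.83, while Csf1r stands alone at -2.56.

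The largest fall among the called proteins was that of a surface receptor. Csf1r, which binds the macrophage growth factor M-CSF and is a known substrate of the sheddase ADAM17, had M/L values of 1.32 and 1.26 in the mock runs at 0.5 h and 0.285 and 0.202 in the LPS runs. At 1 h it read 1.21 and 1.02 in mock and 0.145 and 0.202 in LPS. Every LPS run was far below every mock run, and the mock runs were near the 0 h values of 1.36 and 1.45. The fall over the first hour was -2.56 ± 0.23 (log2 ± SE, 4 against 4 runs, limma adjusted p = 3.87e-07), which puts mock at 5.89 times LPS. It was -2.42 at 0.5 h (adjusted p = 0.000257) and -2.70 at 1 h (adjusted p = 8.08e-05), from 6 to 18 peptide pairs per run. The direction held when summed peptide intensities replaced the ratios, but the size was -0.61 and the call was lost. It was also lost at 0.5 h with the 8 runs fitted alone.

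Axl, a receptor tyrosine kinase that binds Gas6 on dying cells and is also known to be shed, read 0.662 and 0.587 in mock and 0.443 and 0.458 in LPS at 0.5 h. At 1 h the values were 0.569 and 0.547 in mock and 0.328 and 0.388 in LPS. The groups did not overlap, and Axl fell by 0.56 on the log2 scale over the first hour (adjusted p = 0.00363). Csf1r and Axl were the 2 called of 13 tested members of the list of ADAM sheddases, rhomboids and shed receptors, against 4.84% of all proteins. Adam17, the protease that cuts many cytokines and receptors, gave -0.02, Adam10 0.20 and Rhbdf2, the inactive rhomboid that carries Adam17 to the surface, -0.12, and none of them passed. Tnfrsf1b, the TNF receptor 2, gave -0.27 and Icam1, an adhesion molecule, 0.25, also without passing. Of 17 tested members of a list of integrins, C-type lectins and Fc receptors, which also held Cd68, 0 were called. A log2 above 0 was found for 14 of them, against 1638 of all 3638 proteins. Cd68 was highest at 0.24 and the Fc receptor Fcgr1 lowest at -0.15.

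Rtn4 (reticulon 4, or Nogo), a protein that shapes the tubules of the endoplasmic reticulum (ER), fell in both times. Its M/L was 0.575 and 0.608 in mock against 0.285 and 0.382 in LPS at 0.5 h, and 0.550 and 0.588 against 0.310 and 0.404 at 1 h. The mock values lay near those of 0 h (0.552 and 0.574) and every LPS value lay below them. The fall was -0.76 ± 0.08 over the first hour (adjusted p = 2.15e-06), from 14 to 23 pairs per run. Its call was lost without the run factor, where the difference was -0.84, and with the 8 runs fitted alone.

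Hmgn1, a high mobility group protein that binds nucleosomes and loosens chromatin, was called lower at 1 h and not at 0.5 h. It read 1.37 and 1.36 in mock and 1.15 and 1.09 in LPS at 0.5 h, where the difference of -0.29 did not pass (adjusted p = 0.31). At 1 h it was 1.40 and 1.45 in mock and 0.786 and 0.748 in LPS, a difference of -0.89 (adjusted p = 0.000854). Over the first hour it was -0.59 ± 0.09 (adjusted p = 0.000873). The group was identified from 2 peptides, with 5 to 8 pairs per run. The change of the effect from 0.5 to 1 h was not called for any of 3227 proteins, Hmgn1 included, by limma (0 called, 65 at an unadjusted p under 0.05). The 6 other high mobility group proteins tested lay between -0.10 for Hmgb1 and 0.17 for Hmga1, and 0 of them passed.

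**Figure D2:**
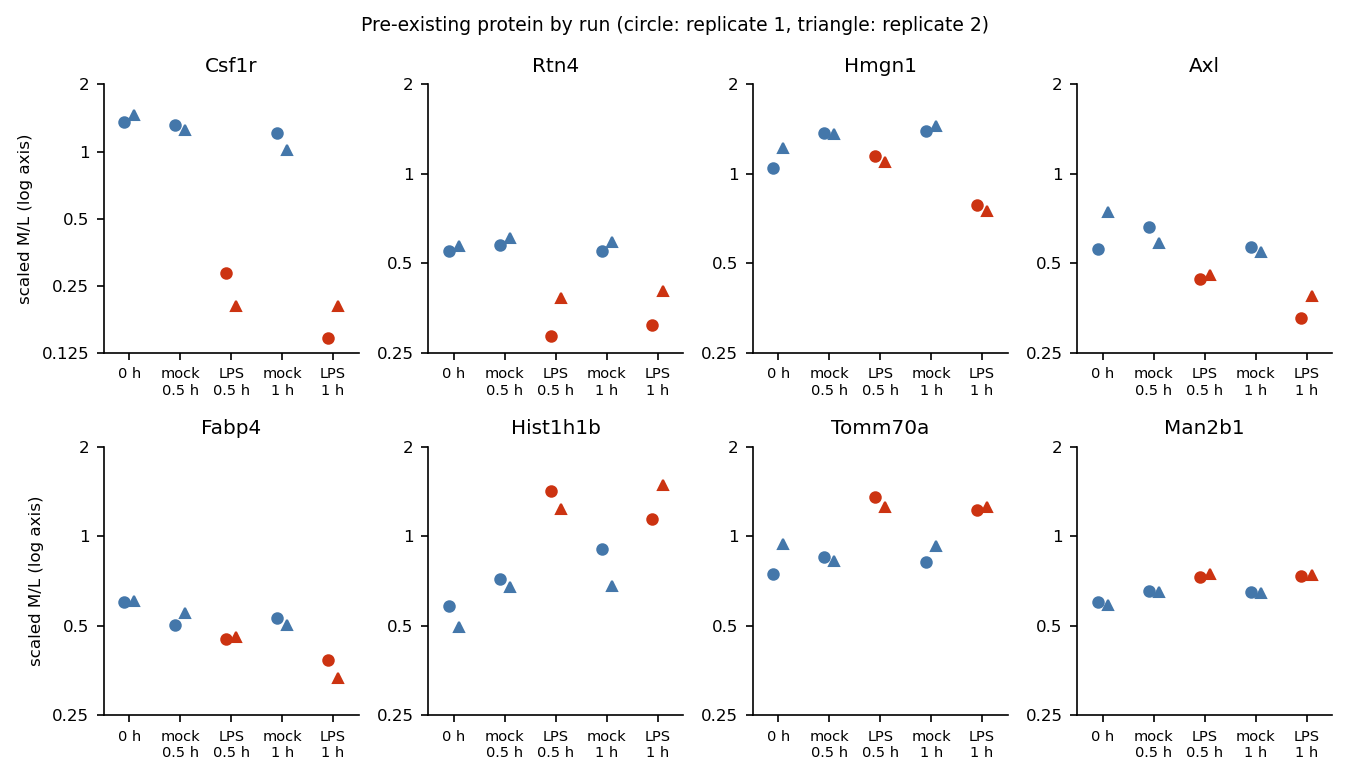
Scaled M/L (y axis, log scale) of Csf1r, Rtn4, Hmgn1, Axl, Fabp4, Hist1h1b, Tomm70a and Man2b1 in each run of 0 h and of mock and LPS at 0.5 and 1 h (x axis). There is 1 point per run, a circle for replicate 1 and a triangle for replicate 2. LPS lies below mock at both times in the first 5 and above it in the last 3. At 0.5 and 1 h Csf1r reads 1.02 to 1.32 in mock and 0.145 to 0.285 in LPS.

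The NF-kB, Toll-like receptor and MAP kinase lists had 1 of 12, 1 of 15 and 0 of 17 members called, against 4.84% of all proteins. Ikbkb, the catalytic IkB kinase that marks IkB for destruction, read 1.05 and 0.936 in mock and 0.755 in both LPS runs at 0.5 h. At 1 h it read 0.850 and 0.931 in mock and 0.819 and 0.825 in LPS. Its fall was -0.25 ± 0.06 over the first hour (adjusted p = 0.0169) and it was called at 0.5 h (-0.39, adjusted p = 0.0301) but not at 1 h (-0.11, adjusted p = 0.844). It was the 1 called of 12 tested members of the NF-kB list. Its partner Ikbkg, the regulatory subunit of the kinase, gave -0.22 and Rela, a transcription subunit of NF-kB, 0.01, neither called. Nfkbia, Tnf and Tlr4 were not analysed here, and Irak1 had an M/L value in 1 of the 8 runs.

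Of 15 tested members of the Toll-like receptor list, Syk, a kinase downstream of Fc receptors and lectins, was the 1 called, at -0.18 (adjusted p = 0.0177). Cd14 gave -0.00, with 0.285, 0.298, 0.274 and 0.296 in the mock runs and 0.301, 0.293, 0.280 and 0.275 in the LPS runs, so the LPS co-receptor overlapped fully. Myd88, the adaptor of most Toll-like receptors, gave 0.11 and Irak4 -0.12, neither called. Of 17 MAP kinase cascade proteins 0 passed, though 16 of them lay below 0 with a median of -0.09, against a median of -0.02 over all proteins tested. Adrbk1, also called GRK2, a kinase that silences G-protein coupled receptors, fell by 0.37 on the log2 scale (adjusted p = 0.000958). Its mock values of 1.02, 1.06, 0.913 and 0.993 all lay above the LPS values of 0.781, 0.750, 0.782 and 0.778. Hspbp1, a nucleotide exchange factor of Hsp70, fell by 0.39 (adjusted p = 0.000873), but its summed intensities gave the opposite sign (0.16, not called).

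Other falls came from proteins of varied roles. Tbc1d22a, a protein with a Rab GTPase-activating domain, gave -0.54 (adjusted p = 0.00277), Myo9b, an unconventional myosin, -0.45 (adjusted p = 0.00979), and Snap29, a SNARE of membrane fusion, -0.31 (adjusted p = 0.0239). Cfdp1 at -0.42 and Thada at -0.39 had 7 of the 8 values each and 1 to 7 and 1 or 2 pairs, so both rest on few peptides. Fabp4, the adipocyte fatty acid binding protein, which macrophages also make, read 0.503, 0.552, 0.531 and 0.503 in mock and 0.451, 0.459, 0.382 and 0.332 in LPS. Its fall of -0.37 over the first hour (adjusted p = 0.00370) was called at 1 h (-0.54, adjusted p = 0.0249) and not at 0.5 h (-0.21). Fabp5, the epidermal form of the same family, fell by 0.21 from at least 274 pairs per run (adjusted p = 0.00979).

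The largest rises among the called proteins were those of linker histones, which bind the DNA between nucleosomes and compact chromatin. Hist1h1b (H1.5) read 0.717 and 0.673 in mock and 1.42 and 1.24 in LPS at 0.5 h, and 0.907 and 0.678 in mock and 1.14 and 1.48 in LPS at 1 h. All 4 LPS values lay above all 4 mock values, and both 0 h values (0.583 and 0.496) lay below the mock values. The rise was 0.83 ± 0.13 (adjusted p = 0.000958), and Hist1h1a gave 0.69, Hist1h1d 0.62, Hist1h1c 0.61 and Hist1h1e 0.59, all called. These 5 were the called members of the 7 linker histones tested, and H1f0 at 0.18 and Hp1bp3 at 0.30 did not pass. Among all proteins 3.57% were called higher. The variants share much of their sequence. No source used here states how shared peptides were assigned, so the split between variants is uncertain and their changes are not independent. The median of the 7 in each run was 0.762 and 0.788 in mock and 1.42 and 1.24 in LPS at 0.5 h, and 0.919 and 0.748 in mock and 1.12 and 1.30 in LPS at 1 h. Of 11 core histones, all with a log2 above 0 and a median of 0.17, Hist1h2bh alone was called, at 0.20.

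The linker histone medians lay above 0 h in both arms. For the 7 linker histones the median log2 from 0 h was 0.28 in mock and 0.99 in LPS at 0.5 h, with 0 and 6 called, and 0.42 and 0.89 at 1 h, with 0 and 6 called. These comparisons share the 2 runs of 0 h. Over all proteins, 0 of 3465 were called in mock between 0 and 0.5 h by limma (159 at an unadjusted p under 0.05), against 447 of 3403 (13.1%, with 7.49% higher) in LPS. Between 0 and 1 h it was 0 of 3433 in mock by limma (214 at an unadjusted p under 0.05). In LPS it was 243 of 3390 (7.17%, with 4.72% higher). A count of 0 does not place mock at its 0 h level. The median of the lysosomal hydrolases was 0.639 and 0.632 at 0 h and 0.714 and 0.717 in mock at 0.5 h. For ER lumen proteins it was 0.787 and 0.789, then 0.830 and 0.840. The mitochondrial membrane list did not rise, with 0.695 and 0.768, then 0.677 and 0.763.

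The nuclear lamina is the filament layer under the nuclear envelope. Among all proteins tested, 3.57% were called higher and 1638 of 3638 lay above 0. Of 11 tested lamina and envelope proteins 4 rose and 0 fell, namely Lmna at 0.24 (adjusted p = 0.00114), Lmnb1 at 0.22, Lmnb2 at 0.19 and Tmpo at 0.20. Lmna read 0.647, 0.668, 0.657 and 0.656 in mock and 0.762, 0.795, 0.759 and 0.795 in LPS. Of the 10 members with 8 values, 7 had all LPS values above all mock values and 1 had them below. Among all proteins the shares were 9.95% above and 10.6% below. Of 21 nuclear pore proteins 20 lay above 0 and 2 were called, Nup155 at 0.29 and Tpr at 0.24. Of 57 spliceosome and hnRNP proteins 52 lay above 0 and 6 were called, from Srsf7 and Srsf1 at 0.14 to Prpf4b, a kinase of the splicing machinery, at 0.22. Fop (Friend of PRMT1, a chromatin-bound protein of mRNA export) read 0.510, 0.493, 0.505 and 0.422 in mock and 0.693, 0.630, 0.638 and 0.696 in LPS. It rose by 0.46 (adjusted p = 0.000958), and it was the only protein called higher at 1 h (0.53, adjusted p = 0.0342).

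Several mitochondrial membrane proteins rose. Tomm70a, an import receptor of the outer membrane, read 0.848 and 0.825 in mock and 1.35 and 1.26 in LPS at 0.5 h, and 0.821 and 0.925 against 1.22 and 1.26 at 1 h. No LPS value touched the mock range, and the rise was 0.57 ± 0.10 (adjusted p = 0.00244). Opa1, the GTPase that fuses inner membranes and holds cristae together, read 0.627, 0.836, 0.783 and 0.763 in mock and 1.10, 1.08, 1.09 and 1.14 in LPS. Its rise of 0.56 (adjusted p = 0.00197) turned to -1.66 without a call when summed intensities were used. Of the 36 inner membrane, import and carrier proteins tested, 11 rose, against 3.57% of all proteins, and 0 fell. In this list 33 lay above 0, with a median of 0.27, against 1638 of all 3638 proteins. Among them the prohibitins Phb and Phb2, ring-forming scaffolds of the inner membrane, gave 0.41 and 0.38. Gpd2, the glycerol phosphate dehydrogenase on the outer face of that membrane, gave 0.46. Chchd3, a cristae junction protein, gave 0.40, Lactb 0.46, the carrier Sfxn1 0.39, and the small import chaperones Timm8a1, Timm8b and Timm13 gave 0.24 to 0.27. The voltage-dependent channels Vdac1, Vdac2 and Vdac3 gave 0.36 to 0.41 and did not pass.

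Of 56 oxidative phosphorylation subunits of the respiratory chain 4 were called, all higher, against 3.57% of all proteins called higher, and 45 lay above 0 with a median of 0.16. The 4 were Ndufa8 at 0.37, Ndufs5 at 0.35, Uqcrh at 0.31 (adjusted p = 0.000873) and Cox6b1 at 0.25. Uqcrh, a small subunit of complex III, read 0.659, 0.738, 0.670 and 0.742 in mock and 0.886, 0.885, 0.834 and 0.886 in LPS. Ndufs1 of complex I gave -0.08 and Atp5a1 and Atp5b of ATP synthase -0.01 each, without passing. Of 40 mitochondrial ribosomal proteins 0 were called, with a median of 0.08.

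Lysosomal hydrolases, the enzymes that degrade endocytosed material, lay above 0 in all 39 tested members. Of these 17 rose, against 3.57% of all proteins, and 0 fell. The median was 0.21, and all 4 LPS values were above all 4 mock values in 23 of 38 members (60.5%), against 9.95% of all proteins. Man2b1, lysosomal alpha-mannosidase, read 0.653, 0.648, 0.651 and 0.644 in mock and 0.731, 0.747, 0.732 and 0.741 in LPS. Its rise of 0.19 ± 0.03 was thus small but larger than the spread (adjusted p = 0.000921). Ctsa, a carboxypeptidase that protects other lysosomal enzymes, rose by 0.30, Ctss, the cathepsin that trims the invariant chain, by 0.27, and Ctsd by 0.22. Also called were Arsa, Ctsc, Pla2g15, Plbd2, Ctsb, Ctsh, Tpp1, Naglu, Ppt1 and Gaa. The median of 38 members in each run was 0.714, 0.717, 0.720 and 0.702 in mock and 0.858, 0.819, 0.813 and 0.824 in LPS. Lyz2 (lysozyme) rose by 0.17 and Grn (progranulin) by 0.18, both among the 7 called of 21 secreted macrophage proteins, a list that shares the called cathepsins Ctsb, Ctsd and Ctss with the lysosomal one. Without the run factor 0 of the lysosomal members were called, and with the replicate block 25.

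Proteins of the ER lumen fold and glycosylate secretory proteins. Of 31 tested 14 rose, against 3.57% of all proteins, 0 fell and 30 lay above 0, with a median of 0.21. All LPS values lay above all mock values in 21 of 31, against 9.95% of all proteins. Calr (calreticulin) read 0.858, 0.904, 0.858 and 0.842 in mock and 1.04, 1.06, 0.959 and 1.02 in LPS, a rise of 0.24 (adjusted p = 0.00197). Hsp90b1 (the ER form of Hsp90) gave 0.24, P4hb (protein disulfide isomerase) 0.23 and Hspa5 (BiP) 0.17, the last from at least 293 pairs per run. Os9, a lectin that sends misfolded proteins to degradation, gave 0.37. The other called members were Dnajb11, Prkcsh, Txndc5, Pdia3, Cnpy2, Pdia4, Uggt1, Ganab and Pdia6. Canx, calnexin, the membrane-bound counterpart of calreticulin, gave 0.04 and did not pass. Of 17 antigen presentation proteins 3 rose, namely the ER residents Calr, Pdia3 and Erap1, while the class II chains H2-Aa at 0.30 and H2-Ab1 at 0.28 did not pass.

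Cytosolic metabolic enzymes went the other way. Of 44 tested 14 fell, against 1.26% of all proteins, 0 rose and 0 lay above 0, with a median of -0.12. In 32 of 44 (72.7%) all LPS values were below all mock values, against 10.6% of all proteins. Acly, which makes cytosolic acetyl-CoA from citrate, read 1.13, 1.14, 1.10 and 1.07 in mock and 0.995, 0.971, 0.993 and 0.982 in LPS. Its fall was -0.17 ± 0.04 (adjusted p = 0.00967). Acy1 and Pgm2 fell by 0.22 each, and the glycolytic enzymes Pgam1 and Tpi1 by 0.16 and 0.13 as the 2 called of 16 glycolysis members. The median of the 44 in each run was 0.985, 0.978, 0.963 and 0.964 in mock and 0.851, 0.873, 0.893 and 0.910 in LPS. The median was -0.06 for 37 proteasome subunits and -0.07 for 18 tRNA synthetases, with 0 called in each. The 73 cytosolic ribosomal proteins had a median of -0.01, with 0 called.

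**Figure D3:**
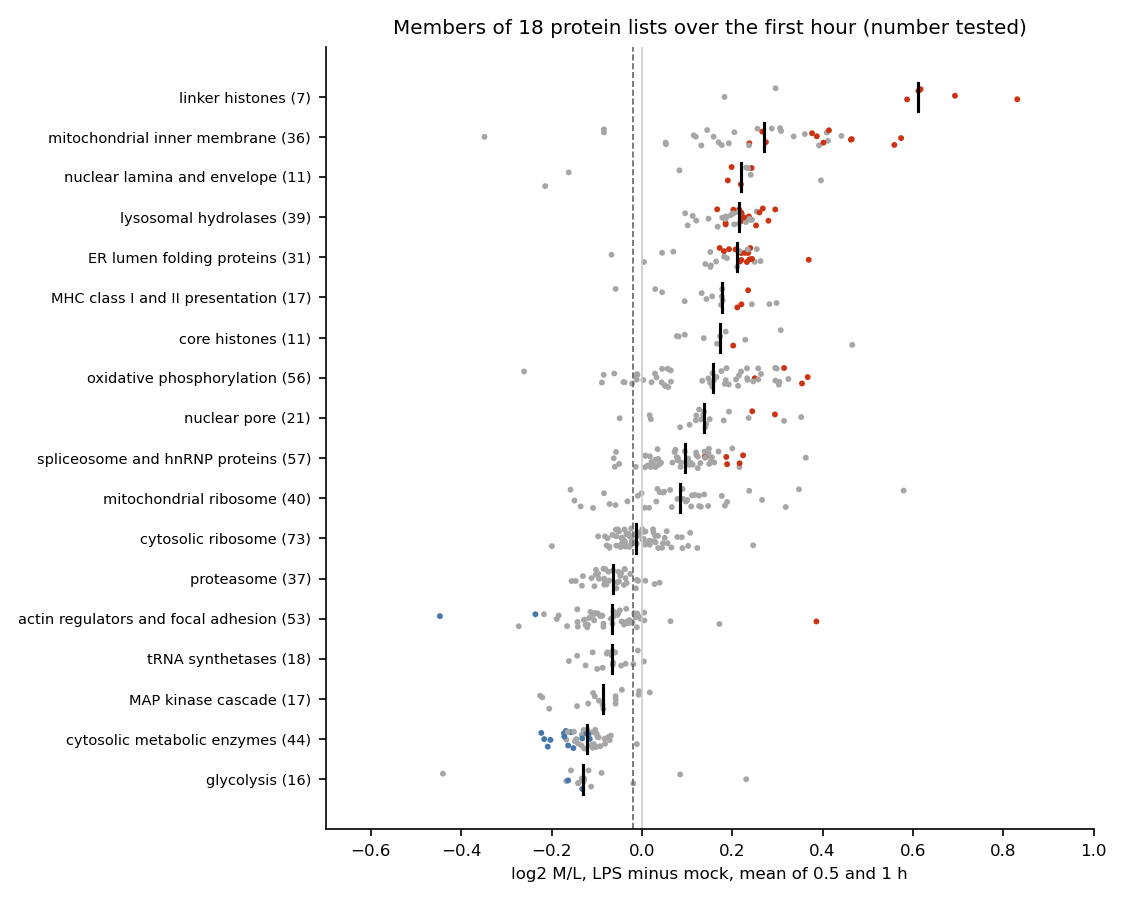
Difference in M/L over the first hour (log2, LPS minus mock) of each tested member of 18 protein lists, in red where called higher, blue where called lower and grey otherwise, with a bar at the median of each list and a dashed line at the median of all proteins (-0.02). Linker histones, mitochondrial membrane, lysosomal and ER lumen proteins sit to the right, and all 44 cytosolic metabolic enzymes sit left of 0.

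The lists of linker and core histones, high mobility group, ER lumen, mitochondrial membrane, lamina, fatty acid binding and cytosolic enzyme proteins were drawn up after the values were seen, so their counts describe and do not test. Without the run factor, where the median of all proteins shifted from -0.02 to -0.09, the medians of the linker and core histone, mitochondrial membrane, lamina, pore, spliceosome, lysosomal, ER lumen and cytosolic enzyme lists kept their sign. That of the high mobility group list turned from 0.05 to -0.02. Uncalled members named here beside the called ones, such as Adam17, Vdac1, Ndufs1, Atp5a1, Canx and H2-Aa, were picked after their values were seen.

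Outside these lists, Fnbp4, a protein that binds formins, read 0.738, 0.830, 0.831 and 0.661 in mock and 0.994, 1.06, 1.25 and 1.30 in LPS, a rise of 0.59 (adjusted p = 0.0111), and Trabd rose by 0.48. Actin regulators and adhesion proteins gave 1 rise and 2 falls among 53, near the 4.84% called among all proteins, so the values describe single proteins. Fscn1, the fascin that bundles actin in mature dendritic cells, read 0.609, 0.561, 0.633 and 0.610 in mock and 0.813, 0.781, 0.677 and 0.897 in LPS, a rise of 0.39 (adjusted p = 0.0272). Pxn (paxillin), a scaffold of adhesion sites, fell by 0.24 and Myo9b by 0.45. Of 45 interferon-stimulated proteins 0 were called and 22 lay above 0, against 1638 of 3638 among all proteins. Of 12 cytokines, chemokines and inflammatory enzymes 0 were called. Of 36 endocytosis, ESCRT and Rab proteins and 26 translation control proteins 0 were called. Granulocyte granule proteins (17 tested) and dendritic cell markers (9 tested) had 0 calls as well, with medians of 0.11 and 0.18. Of the 8 macrophage markers tested, Csf1r fell, Lyz2 rose and 6 were not called, and the median log2 was 0.02. Their median level in each run, Csf1r included, was 0.646, 0.622, 0.609 and 0.596 in mock and 0.504, 0.475, 0.492 and 0.386 in LPS. Csf1r lay above this median in every mock run and below it in every LPS run, so its fall alone moves the median. The median level therefore does not show how the other macrophage markers moved. The part of macrophage content in the falls of Csf1r and Axl was not tested. Ca2 (carbonic anhydrase 2), listed with the red cell proteins, rose by 0.47 (adjusted p = 0.0296) from 3 to 6 pairs per run; it was the 1 member of that list tested.

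At 0.5 h alone, 35 of 3448 proteins were called (1.02%), 27 higher and 8 lower, and at 1 h alone 5 of 3399 (0.147%), 1 higher and 4 lower. With the replicate block the counts were 186 and 42. The 10 highest at 0.5 h were the 5 linker histones (0.69 to 0.93), Tomm70a at 0.64, Opa1 at 0.59, Hbxip, a subunit of the lysosomal Ragulator complex, at 0.53, Rbm25, a splicing regulator, at 0.48 and Ctsa at 0.41. The 8 lower were Csf1r, Rtn4, Adrbk1 at -0.45, Hspbp1 at -0.42, Ikbkb at -0.39, Cstb at -0.32, Serpinb2 at -0.31 and Pgm2 at -0.30. Cstb (cystatin B) is an inhibitor of cathepsins. Serpinb2 (plasminogen activator inhibitor 2) read 0.369 and 0.349 in mock and 0.294 and 0.287 in LPS at 0.5 h, but 0.345 and 0.359 against 0.377 and 0.365 at 1 h. It was not called over the first hour (-0.12, adjusted p = 0.154).

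The times have separate mock runs. Across the 3227 proteins with all 8 values the differences at 0.5 and 1 h correlated with r = 0.437, a description over proteins that share the runs, and 70.1% had the same sign. Of the 35 called at 0.5 h, 34 had the same sign at 1 h. The median absolute log2 of those 35 was 0.32 at 0.5 h and 0.21 at 1 h.

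**Figure D4:**
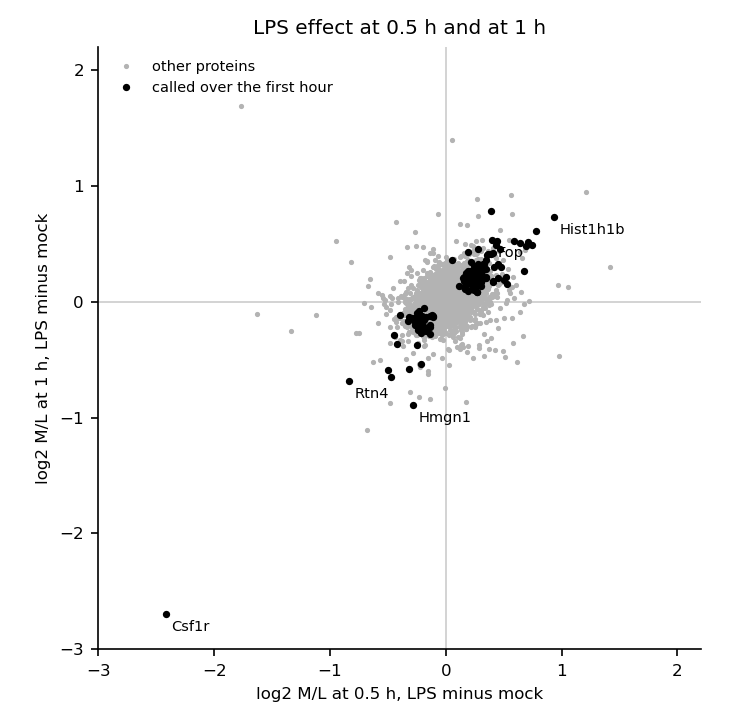
Difference in M/L between LPS and mock at 1 h (y axis, log2) against that at 0.5 h (x axis, log2), 1 point for each of 3227 proteins with values in all 8 runs, black where called over the first hour. Csf1r and Rtn4 are low at both times, Hmgn1 is lower at 1 h, and linker histones are high at both.

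New protein gave few calls, and its signal was close to that of 0 h. The median share of H in H plus M was 13.1 and 14.2% in the 0 h runs and 13.4 to 15.3% in the 8 runs. For H/L 0 of 3379 proteins were called over the first hour by limma (167 at an unadjusted p under 0.05), 0 of 3184 at 0.5 h (145) and 1 of 3158 at 1 h (0.0317%). That 1 was Rpl27a, a ribosomal protein, at 0.0310 and 0.0294 in mock and 0.0797 and 0.0812 in LPS (log2 1.41, adjusted p = 0.0388), and leaving out any of its 4 runs lost the call.

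Junb, an immediate-early AP-1 subunit, read an H/L of 0.216, 0.236, 0.316 and 0.280 in mock and 0.528, 0.366, 0.668 and 0.674 in LPS. The groups did not overlap, but the difference of 1.07 ± 0.22 did not pass (adjusted p = 0.102), and its M/L difference was 0.02 (adjusted p = 0.986). With the 0 h value subtracted the H/L difference was 3.32 and passed (adjusted p = 0.000212). Pes1, Sdhaf2 and Ifi47 were the other proteins with the smallest p among higher values, at 3.25, 2.34 and 0.83, and 2810422J05Rik at -1.35, Srp19 at -1.52, Sh3bgrl3 at -0.73 and Ecm29 at -0.70 among lower ones, and none passed. Pes1 is a ribosome assembly factor and Ifi47 an interferon-inducible GTPase. Il1b, the inflammatory cytokine interleukin 1 beta, gave 0.74 in H/L and -0.36 in M/L, and the lipid carrier Apoe -0.22 and -0.57. Lpl, lipoprotein lipase, gave -0.45 and 0.04. None of these passed.

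At the single times the H/L values with the smallest p did not pass either, other than Rpl27a. At 0.5 h they were Ifi47 at 1.31, Osbpl9 at 1.39, Zfand5 at 1.34 and Sdhaf2 at 2.84 among the higher, and Wnk1 at -2.95, 2810422J05Rik at -1.58, Sh3bgrl3 at -1.04 and Rpl35a at -2.29 among the lower. At 1 h they were Marcksl1 at 1.63, Zfp36l1, a protein that binds and destabilises mRNA, at 1.37 and Ppfibp2 at 2.19, and Cd48 at -1.09, Atp13a1 at -3.08, Ndufa7 at -1.47 and Tlr7 at -1.69.

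For H/M 1 of 3379 proteins was called over the first hour (0.0296%), Csf1r, and 166 had an unadjusted p under 0.05. Its H/M was 0.0873, 0.138, 0.194 and 0.188 in mock and 0.418, 0.441, 0.631 and 1.04 in LPS, a difference of 2.03 ± 0.26 (adjusted p = 0.000246). Its H/L difference was -0.37, lower in LPS, and did not pass (adjusted p = 0.89), so of its parts only M/L was called. Over the first hour Pes1 at 3.52, Sdhaf2 at 2.16 and Adrbk1 at 1.09 followed without passing, and Ndufa7 at -1.29, Srp19 at -1.75, Eepd1 at -4.49 and 2810422J05Rik at -1.16 in the other direction. At 0.5 h 0 of 3184 were called by limma (152 at an unadjusted p under 0.05), and Csf1r gave 1.97 (adjusted p = 0.0696). The next were Rsu1 at 1.09, Ptx3 at 2.63 and Sdhaf2 at 2.56, and Rpl35a at -2.24, Bcl2l1 at -1.92 and 2810422J05Rik at -1.29, with Sh3bgrl3 next. At 1 h Csf1r was the 1 call of 3158 (2.09, adjusted p = 0.0308), ahead of Rpl27a, Poldip3 and Adrbk1 at 1.39 to 1.45 and Ndufa7, Mfap1, Pikfyve and Bzw1 at -2.78 to -1.01, none called.

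Some proteins had a ratio in 1 arm alone, or nearly so, and have no test. These were named after their values were seen. Cxcl2, a chemokine that draws neutrophils, had an M/L in 4 of 4 LPS runs and in 1 of 4 mock runs, and an H/L of 1.09 and 1.32 at 0.5 h and 2.89 and 2.46 at 1 h in LPS against 0.249 in the 1 mock run. Outside these 8 runs it had an M/L in 15 of 16 LPS runs and 1 of 18 mock runs, from 3 or 4 pairs in the LPS runs here. Csf2rb, the shared beta chain of the GM-CSF and IL-3 receptors, read 0.693, 0.686, 0.597 and 0.541 in the LPS runs and had no value in the 4 mock runs. It did have values at 0 h (0.719 and 0.675) and in 12 of 18 other mock runs, from 2 or 3 pairs in the LPS runs here, and 1 pair was counted in each of the 4 mock runs without a ratio. Haus5, of the spindle-binding augmin complex, had values in 4 LPS and 0 mock runs, and a second group of Esd, an esterase, in 4 mock and 0 LPS runs, again with 1 pair counted in each LPS run. In all, 38 proteins had an M/L in at least 3 LPS and at most 1 mock runs, and 59 the reverse.

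The comparison at 2 and 3 h (16 samples, 8 other runs) shows where the first hour differs. There 11 of 3539 proteins were called in M/L (0.311%), all lower. Of the 129 proteins risen in the first hour and tested at 2 and 3 h, 0 were called there by limma, 24 still had a log2 above 0 and the median was -0.07. The difference between the periods was itself called for 79 of 129, and for 116 of all 3501 proteins tested (3.31%, with 2.74% higher in the first hour). This comparison was added after the data were seen. The risen and the fallen proteins were chosen by their first-hour effect, which is part of this difference. Their shares with a called difference are favoured by that choice, so they describe and do not test. Of 44 fallen proteins tested, 4 were called again, namely Csf1r at -1.61, Rtn4 at -0.65, Hmgn1 at -1.16 and Axl at -0.62. Of the 44, 19 kept a log2 below 0, the median was 0.01, and the difference between the periods was called for 13.

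The excess of the linker histones in LPS over mock was not seen at 2 and 3 h, where none of the 5 passed (limma adjusted p 0.401 to 0.780). Their level in mock had risen by then. The median of the 7 linker histones was 0.655 and 0.619 at 0 h. At 2 h it was 1.12 and 1.11 in mock and 0.973 and 0.840 in LPS. Hist1h1b was 0.83 in the first hour and -0.36 at 2 and 3 h (adjusted p = 0.527), a difference of 1.20 ± 0.19 (adjusted p = 0.00113), and it stood at -2.98 at 24 h, when mock had risen to 3.64 and 4.95 and LPS stood at 0.562 and 0.511. The median of the 39 lysosomal hydrolases went from 0.21 to -0.10 and that of the 31 ER lumen proteins from 0.21 to -0.10. The difference was called in 17 of 39 and 14 of 31. Levels moved in both arms. The lysosomal median went from 0.714 and 0.717 at 0.5 h to 0.805 and 0.772 at 2 h in mock. In LPS it went from 0.858 and 0.819 to 0.773 and 0.733. The ER lumen median went from 0.830 and 0.840 to 0.875 and 0.876 in mock. In LPS it went from 0.988 and 0.985 to 0.843 and 0.802. The mitochondrial membrane list had a median of 0.19 at 2 and 3 h with 30 of 35 above 0, and the difference was called in 1 of 35. Cytosolic metabolic enzymes had a median of 0.03 at 2 and 3 h, and the difference was called in 4 of 44.

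The falls had different courses. Hmgn1 was lower still, at -1.38 at 2 h and -0.95 at 3 h, and its difference between the periods was 0.57 (adjusted p = 0.0139). Rtn4 was -0.74 at 2 h, -0.56 at 3 h and -0.11 at 24 h. Axl stayed low, with its lowest value of -0.97 at 9 h, and read 0.00 at 24 h. Csf1r was -2.73 at 2 h, -0.49 at 3 h, -0.19 at 4 h, -2.18 at 6 h and -2.27 at 12 h. Its mock values went from 1.36 and 1.45 at 0 h to 0.490 and 0.418 at 24 h, while the LPS values ranged from 0.0748 to 0.651 over all times.

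**Figure D5:**
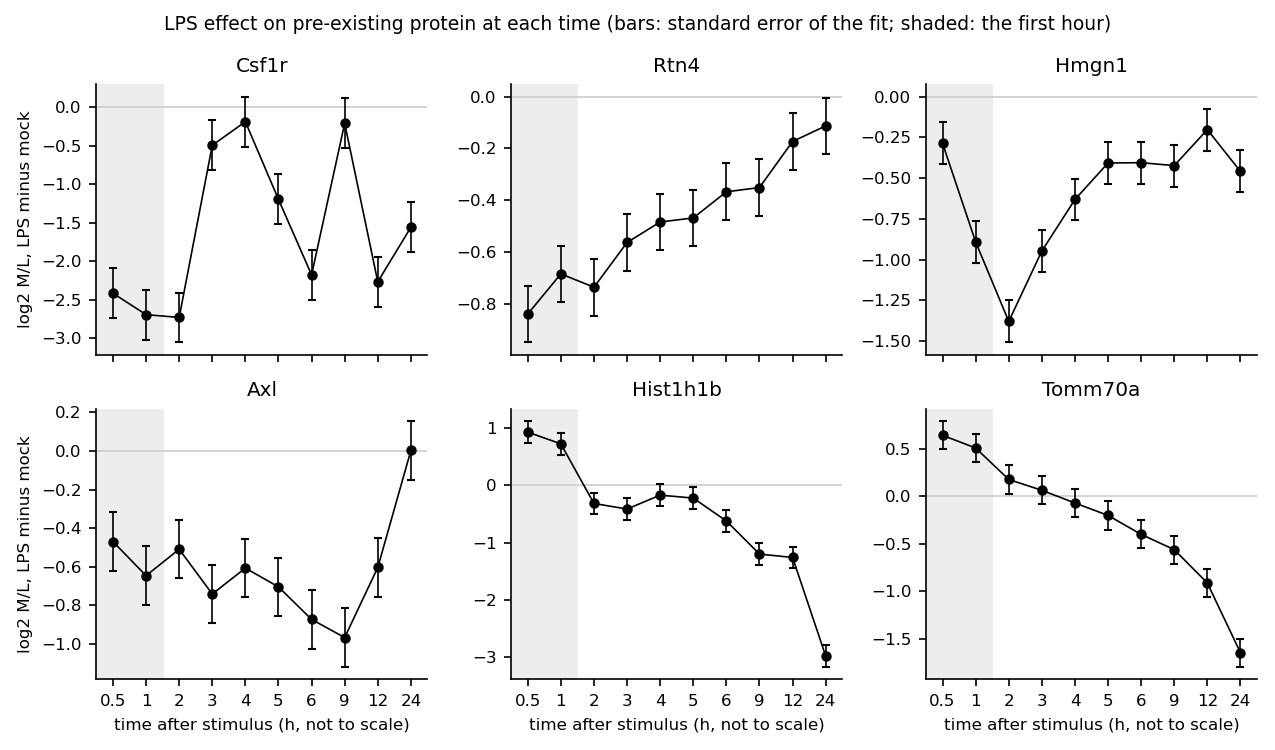
Difference in M/L (y axis, log2, LPS minus mock) of Csf1r, Rtn4, Hmgn1, Axl, Hist1h1b and Tomm70a at each time (x axis, h, not to scale). Each protein has 1 point per time with a bar for the standard error of the fit, and the first hour is shaded. At 0.5 h Csf1r, Rtn4, Hist1h1b and Tomm70a differed by the test and Hmgn1 and Axl did not. Hist1h1b and Tomm70a start higher in LPS than in mock and end lower, and the Csf1r difference is irregular from 3 h on.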

How the data were processed

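Proteins of dendritic cells were measured by mass spectrometry in 42 trypsin runs of pulsed SILAC, of which the 8 at 0.5 and 1 h were compared. Cells were lysed in urea and the lysates cleared by centrifugation, per the labels' protocols. The authors deposited 1 table of 6266 protein groups with un-normalised M/L, H/L and H/M ratios per run, per the file headers. The ratio counts (peptide pairs behind a ratio) and the summed peptide intensities per channel were also deposited by the authors, per the file headers. Search software and its settings were not stated in the labels used here. After removal of 367 reverse, contaminant and by-site groups, 5899 were kept.

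The deposited M/L and H/L ratios of a run were scaled by 1 factor before log2 was taken. That factor summed M/L and H/L for each of 2628 proteins measured in all 42 runs and took their median. H/M took no factor. limma 3.58.1 (R 4.3.3) fitted 21 group means over all 42 runs, and LPS minus mock was tested with Benjamini-Hochberg adjustment and called at an adjusted p under 0.05. First-hour tests needed 3 of 4 values in each arm and 1 in each group, and single times needed all 4. On simulated data the first-hour fit over 3638 proteins recovered 70% of changes of log2 0.5 and 96% of those of log2 1. It called 5 of 3438 unchanged proteins. The simulated errors were independent between runs, which those of the same-numbered real runs were not. Changes of the median called sizes (0.24 and -0.21) were not simulated, so the rates do not apply to them. Tables were built with Python 3.11.15, numpy 2.4.6 and pandas 2.3.3.

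No source gave the replicate numbers a meaning. Same-numbered runs deviated together in all 6 pairs of groups (correlation of M/L deviations 0.155 to 0.469 across proteins), so results with the replicate number as a block stand beside the counts they move. Proteins were named by rule: the 12 highest and 12 lowest called changes over the first hour, up to 10 and 10 at single times, up to 8 and 8 in H/L and H/M, called list members and 10 preset proteins. The members and lists were chosen with earlier results of these data known, and 11 of 42 lists were drawn up after their values were seen. A few proteins are not reported here.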

Additional observations from a re-analysis of the deposited data

Results flagged for a closer look

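For 8 of the named proteins the effect of LPS over the first hour differed from that at 2 and 3 h by a limma contrast over both periods. The linker histones differed most in size. The first hour exceeded 2 and 3 h by a log2 of 1.20 for Hist1h1b (0.83 against -0.36, adjusted p = 0.00113), 1.08 for Hist1h1a, 0.89 for Hist1h1c, 0.83 for Hist1h1d and 0.79 for Hist1h1e. Fop differed by 0.73 (0.46 against -0.27, adjusted p = 0.00101). Hmgn1 differed by 0.57, being lower in both periods and further down in the second (-0.59 against -1.16, adjusted p = 0.0139). Snap29 differed by -0.42 (-0.31 against 0.11, adjusted p = 0.043). The periods use separate LPS and mock runs, and the contrast was added after the data were seen. These proteins were named for their first-hour effect, which is part of the contrast, so it is not an independent test of them.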

How the results depend on the processing

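Counts of called proteins in M/L are given in the order first hour, 0.5 h and 1 h, and were 176, 35 and 5 as reported. They were 1, 1 and 1 without the run factor, 2, 0 and 2 with the 8 runs alone, 0, 0 and 0 with those runs and a replicate block by time-and-replicate pair, and 14, 1 and 2 from summed intensities. They were 407, 186 and 42 with the replicate block, under which all 130 named called results stayed called, and 594, 389 and 119 with the deposited normalised ratios. With these ratios 325 were higher and 269 lower over the first hour, 216 and 173 at 0.5 h and 95 and 24 at 1 h, against 130 and 46, 27 and 8, and 1 and 4. The single times gave 74 and 8 with each channel's own median (4 higher and 4 lower at 1 h), and 78 and 11 with a variance trend on ratio counts. At 0.5 h it was 67 with at least 3 ratio counts. Leaving out runs gave 4 to 140, 2 to 6 and 2 to 9, and 0 to 2 for the change between the times.

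In H/L the counts were 0, 0 and 1. Over the first hour they were 1 with normalised ratios, with 3 ratio counts, with summed intensities and with no filter, and 4 with the 0 h value subtracted. At 0.5 h they were 2 with no filter and 1 with 0 h subtracted. At 1 h they were 2 with no filter and 0 without the run factor, with own medians, with normalised ratios, with the 8 runs alone and with the pair block. In H/M the counts were 1, 0 and 1. They were 0 over the first hour and at 1 h with the 8 runs alone, the pair block and summed intensities, 0 at 1 h when centred or with normalised ratios, 2 at 1 h with no filter, and 1 at 0.5 h with 3 ratio counts. Leaving out runs gave 0 to 7, 1 to 10 and 0 to 13 in H/L, and 1 to 10, 2 to 8 and 0 to 8 in H/M.

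Of the named called results, Opa1 and Hspbp1 changed sign in M/L, both with summed intensities, at -1.66 for Opa1, and 0.16 over the first hour and 0.52 at 0.5 h for Hspbp1. The cause was not tested. The other reversals were in uncalled results. Without the run factor M/L was -0.054 for Junb, -0.038 for Lpl, -0.056 for Araf, -0.020 for Tial1, -0.034 for Psmb5 and -0.069 for Dars. With own medians it was 0.0045 for Cd14. With normalised ratios it was 0.080 for Cd14, -0.10 for Lpl, -0.056 for Araf, -0.066 for Psmb5 and -0.0047 for Dars, and Sh3bgrl3 gave an H/L of 0.26 over the first hour and 0.83 at 0.5 h and an H/M of 0.28 at 0.5 h. With 3 ratio counts Psmb5 was -0.054. With summed intensities M/L was -1.20 for Lpl, -0.17 for Araf, 0.11 for Fcgr1, 0.52 for Iigp1, -0.027 for Tial1, 0.091 for Psmd9 and -0.011 for Man2b1 at 1 h. The H/L was 0.069 for Ecm29 and 0.13 for Cd14. The H/M was -0.016 for Adrbk1, 0.38 for Cd14, 0.21 for Lpl, and at 0.5 h -0.47 for Csf1r and 0.022 for Sh3bgrl3. Leaving out runs gave M/L ranges of -1.05 to 0.34 for Il1b, -0.21 to 0.25 for Junb, -0.28 to 0.36 for Lpl, -0.054 to 0.13 for Psmb5, -0.016 to 0.025 for Dars, -0.064 to 0.054 for Cd14, -0.013 to 0.57 for Mpo, -0.87 to 0.36 for Iigp1, -0.031 to 0.066 for Araf, -0.58 to 0.066 for Pdcd4, -0.36 to 0.059 for Fcgr1 and -0.28 to 0.10 for Irf4. Proteins with few peptide pairs have imprecise ratios, and 2 runs a group limit every single-time test.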

Other observations

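Some proteins outside the lists were also among the 130 called higher in M/L over the first hour (3.57% of those tested). They were picked after their values were seen, and no list of their kinds was counted, so the values describe single proteins. The peroxisomal enzymes Acaa1a, catalase (Cat) and Hsd17b4 gave 0.21, 0.23 and 0.24. The Golgi tethers Golgb1 and Golga2 gave 0.33 and 0.24, and the mannosidase Man1a2 0.46 from 1 to 3 peptide pairs per run. Pbrm1, a subunit of a chromatin remodelling complex, gave 0.35 and the RNA-binding protein Rbm17 0.33.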
